A study of Mus musculus with 12 samples.

Results

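Endothelial cells (ECs) sorted from mouse lungs were compared between week 2 and week 1 after the mice had received MDA231-LM2 cells through the tail vein, a line of human mammary carcinoma selected for its capacity to colonize the lung. The comparison holds 6 of the 12 arrays of the series, 3 labelled 2 weeks and 3 labelled 1 week after intravenous injection. All 45037 probe sets that are not array controls were tested, and 18193 genes were read from them. Each gene was read from the probe set with 1 gene symbol and the highest mean over the 12 arrays.

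All mice were of the NSG strain, 6 to 8 weeks of age at injection, and the mice of both weeks carried the same cancer cells, so the groups differ by label in time alone. The control group held 3 arrays from healthy lungs of mice of the same age that were not given cancer cells, and week 3 held 3 more, and both stand here only to show where a level lies. Cells were kept that carried CD31 on their surface and lacked CD45, CD11b, EpCAM, CD140a, CD140b and the GFP of the cancer cells, and each array was labelled from picogram amounts of total RNA. The labels call the 3 arrays of a group biological replicates and do not say how many mice stand behind each. ECs came from the whole lung, near and far from metastases, the human cells grow in an immunodeficient host that lacks T, B and natural killer cells, and a single cancer line was used, which limits these arrays as a model.

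ECs line every blood vessel and control what passes into the tissue, which leukocytes attach and when new vessel branches form. In a growing metastasis they can take on programs of inflammation, interferon response, proliferation and matrix secretion, and factors they release can act on cancer cells nearby. In bulk ECs of this kind, fewer cells of a type and less RNA per cell cannot be told apart.

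The arrays of week 1 were the least alike of the 4 groups. The median standard deviation (SD) of a gene over 3 arrays was 0.176 on the log2 scale at week 1 and 0.130 at week 2, with 0.147 in control and 0.143 at week 3. At week 1, 771 genes (4.24%) had an SD above 0.5, against 505 (2.78%) at week 2, and the SD was larger at week 1 for 62.0% of genes. Correlations over probe sets were from 0.973 to 0.982 within week 1, 0.983 within week 2 and from 0.973 to 0.980 between the weeks. Replicate 2 of week 1 stood farthest from its group, with a mean absolute deviation of 0.168 against 0.140 and 0.150 for the other arrays of week 1 and 0.120 to 0.122 for week 2. In that array 61 genes lay more than 1 log2 unit above both other week 1 arrays and 44 lay as far below.

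**Figure D1:**
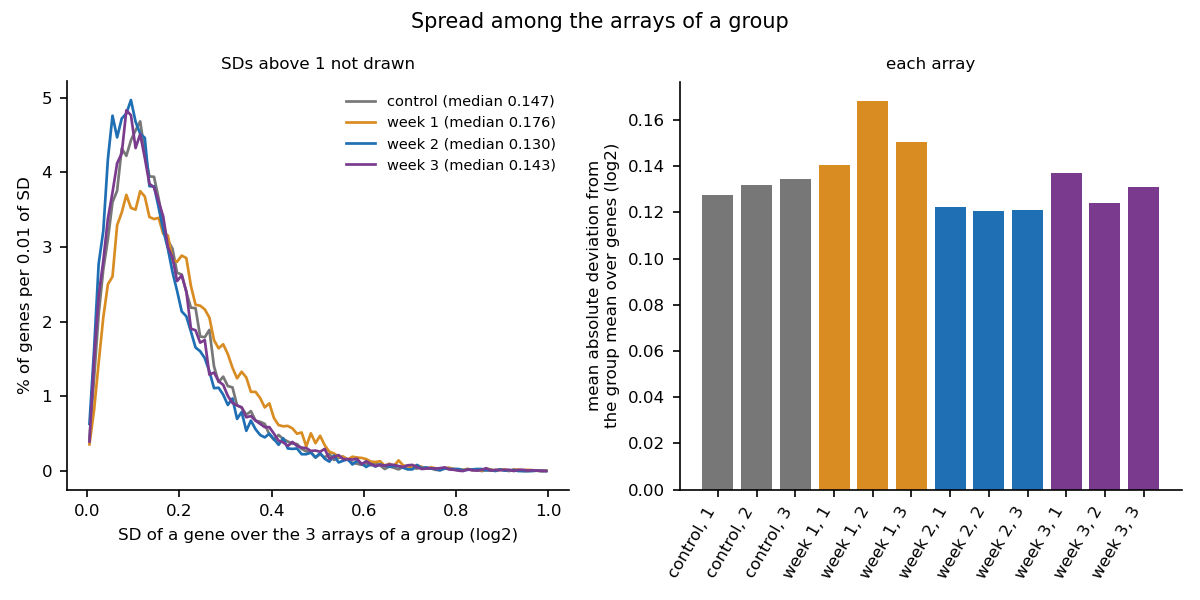
Spread among the 3 arrays of each group. Left, the share of 18193 genes (%, per 0.01 of SD) against the SD of a gene (log2), and right, the mean absolute deviation of each array from its group mean (log2), where replicate 2 of week 1 reaches 0.168 and the week 2 arrays lie between 0.120 and 0.122.

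The genes that varied most within week 1 did not vary as one group. Cxcl13, a chemokine that attracts B cells, had log2 signals of 9.40, 8.68 and 7.20 at week 1 and of 7.38, 7.84 and 7.90 at week 2. Scgb3a2, a secretoglobin of the airway epithelium, had 8.77, 9.18 and 7.27 at week 1 and 9.87, 7.27 and 6.84 at week 2. Actc1, the actin of cardiac muscle, had 7.83, 9.01 and 9.72 at week 1 and 7.58, 7.24 and 9.13 at week 2. For each of these genes the arrays of the weeks overlapped, with the highest array of week 1 in replicate 1, 2 and 3 in turn. Klf15, a transcription factor of metabolic control, was at 7.53, 8.63 and 9.38 in week 1, and Basp1, a membrane protein of growing neurites, was at 8.12, 6.68 and 8.51.

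No gene passed the test between the weeks. With limma, 0 of 18193 genes had an adjusted p below 0.05, and the lowest adjusted p over all probe sets was 0.183. At an unadjusted p below 0.05 there were 1192 genes (6.55% of those tested), with 633 (3.48%) higher and 559 (3.07%) lower at week 2. Without replicate 2 of week 1, these counts were 618 and 583. Of all genes, 13.1% had arrays of week 1 and week 2 that did not overlap, 6.16% with week 2 higher and 6.94% with week 2 lower. The labels split the sum of squares over all probe sets so that 24.3% lay between the weeks, the largest of the 10 ways to split the 6 arrays into 3 and 3 (exact permutation p = 0.1, the smallest that this design allows). Over the 10 ways the share ran from 18.6% to 24.3%, so that any split gave a share of near this size.

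Differences were small for most genes. The median absolute difference was 0.11 on the log2 scale, the median difference was -0.02, and 45 genes (0.247%) differed by more than 1. The 95% interval of a difference, without adjustment, reached 0.34 to each side for the median gene. Differences below this size were thus mostly not detectable at an unadjusted p below 0.05 with 3 arrays a group. The adjusted test missed far larger ones: Muc13, at a difference of 1.80, had an adjusted p of 0.2205 with limma. A gene that did not pass it can therefore still hold a large difference. The genes and lists below are therefore described by their levels, by unadjusted p and by the share of all genes that meets the same criterion. Where a list is given without that share, it is 3.48% for higher and 3.07% for lower at an unadjusted p below 0.05.

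**Figure D2:**
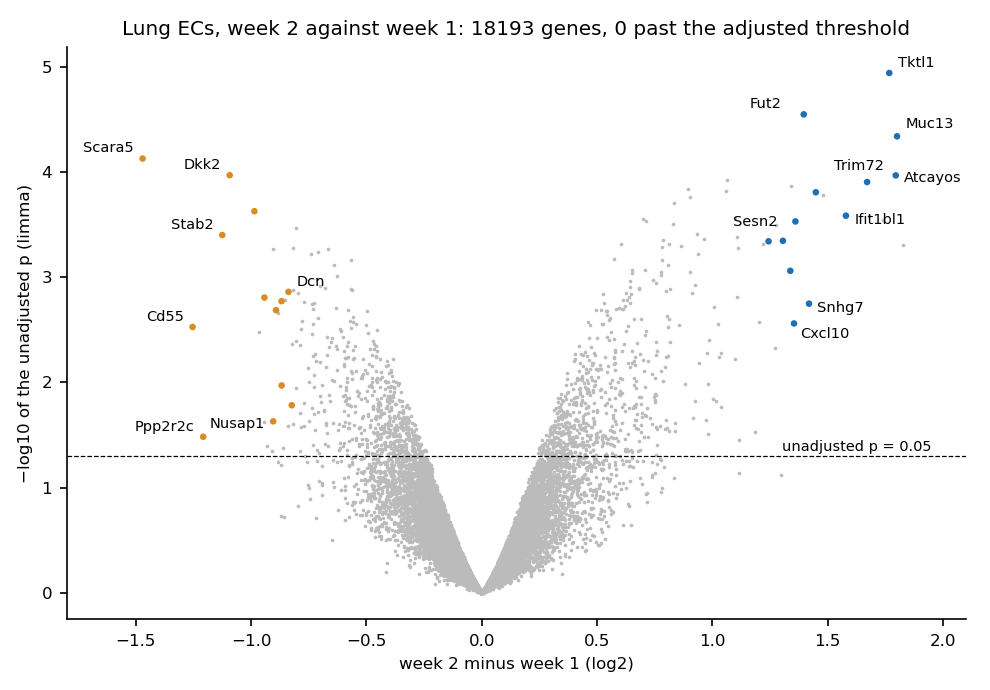
Difference between week 2 and week 1 (log2, horizontal) against the unadjusted p from limma (−log10 scale, vertical) for 18193 genes. Coloured points are the 12 largest differences in each direction by the naming rule and the 5 lowest p-values (blue higher, orange lower at week 2), and 0 genes pass the adjusted threshold although Tktl1, Fut2, Muc13, Scara5 and Dkk2 reach an unadjusted p between 1.15e-05 and 0.000107.

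Many of the largest differences upward were found in genes that were low at week 1 and near the control level at week 2. Muc13, a mucin of epithelial cell surfaces, had log2 signals of 7.42, 8.11 and 7.48 at week 1 and of 9.64, 9.23 and 9.54 at week 2, a difference of 1.80 (95% interval from 1.31 to 2.30, unadjusted p = 4.59e-05, adjusted p = 0.2205). Its arrays did not overlap between the weeks, the control arrays lay at 9.48, 8.86 and 9.22, and a further probe set of the gene differed by 1.54. The same order of groups was seen for Fut2, the fucosyltransferase that makes the H antigen of secretions, at 9.10, 9.02 and 9.32 in week 1 and 10.29, 10.71 and 10.63 in week 2 (difference 1.40, unadjusted p = 2.84e-05). A further probe set of Fut2 differed by 0.51. Trim72, which acts in membrane repair of muscle cells, was at 9.21, 8.54 and 9.47 in week 1 and at 10.76, 10.71 and 10.75 in week 2, where the 3 arrays were nearly level (difference 1.67, 95% interval from 1.14 to 2.20).

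Tktl1, a transketolase-like enzyme, had the lowest unadjusted p of all genes (1.15e-05). Week 1 arrays gave log2 signals of 6.99, 7.57 and 7.17, those of week 2 gave 9.04, 9.12 and 8.87, and those of week 3 gave 6.48, 5.98 and 6.21. Week 2 therefore lay above both neighbouring weeks in every array, at a level of the control arrays (9.16, 8.86 and 9.32). Its 2 further probe sets differed by 1.85 and 1.27. Its mean over the 12 arrays was below the median of all values, 8.13, so that it is not among the 12 largest by the naming rule. Muc13, Fut2 and Trim72 were also lower at week 3, with means of 8.05, 9.27 and 8.50.

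Sesn2 encodes a stress-induced inhibitor of mTORC1 signalling and is a target of p53. Its log2 signal was 8.83, 8.15 and 8.34 in the week 1 arrays, compared with 9.54, 10.07 and 9.79 at week 2 (difference 1.36, 95% interval from 0.86 to 1.86, unadjusted p = 0.000295). A further probe set of Sesn2 differed by 0.54. Cry1, a repressor of the circadian clock, was at 8.24, 7.92 and 8.33 in week 1 and at 9.53, 8.99 and 9.70 in week 2 (difference 1.24). No array of week 1 reached the lowest of week 2 in these genes, which the naming rule required. The other large upward differences were in Atcayos (1.79), an antisense transcript whose other probe set differed by -0.01, Slx1b (1.45), the subunit of a structure-specific endonuclease, Snhg7 (1.42), a host transcript of small nucleolar RNAs, and Gnat1 (1.34), the transducin of rod cells. The further probe sets of Slx1b differed by 0.53 and 0.63.

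The largest difference downward was that of Scara5, a scavenger receptor for ferritin, which was at 9.47, 8.87 and 8.95 in week 1 and at 7.80, 7.64 and 7.45 in week 2, a difference of -1.47 (95% interval from -1.91 to -1.04, unadjusted p = 7.47e-05), while a further probe set differed by -0.09. Stab2, the hyaluronan receptor of sinusoidal and lymphatic ECs, was at 9.53, 9.45 and 9.13 in week 1 and at 8.53, 7.94 and 8.27 in week 2 (difference -1.13, unadjusted p = 0.000398). Both genes were at the control level in week 1. Every array of week 2 lay below every array of control, and below those of week 1 as the naming rule required.

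Cd55, the decay-accelerating factor that protects cells from complement, was at 10.43, 10.37 and 10.51 in week 1 and at 9.78, 8.52 and 9.24 in week 2. The difference was -1.25 (95% interval from -1.93 to -0.58), and its 2 other probe sets differed by -1.10 and -1.21. The arrays of week 2 lay farther apart than those of week 1, and the groups did not overlap, as the naming rule required. Ptx3, a long pentraxin of innate immunity, was at 9.0, 9.19 and 8.60 in week 1, at 7.97, 7.76 and 8.24 in week 2 and at 9.36, 9.10 and 9.14 in week 3 (difference -0.94), so that week 2 was the low point of the weeks after injection. A further probe set of Ptx3 differed by -0.23.

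Olfm2, a secreted olfactomedin, was at 10.74, 10.93 and 11.05 in week 1 and at 10.15, 9.86 and 9.75 in week 2 (difference -0.99, unadjusted p = 0.000236). Its week 1 arrays lay above those of every other group, and the week 3 arrays were the lowest, from 8.78 to 9.31. Pcsk5, a proprotein convertase that activates secreted factors, was even among the arrays, at 12.29, 12.34 and 12.35 in week 1 and 11.80, 11.53 and 11.77 in week 2 (difference -0.63, 95% interval from -0.90 to -0.35). Lower at week 2 were also Rbp7 (-0.89), a retinol-binding protein of capillaries, Htra1 (-0.87), a secreted protease of the matrix, Flvcr2 (-0.87), a membrane transporter, and Ppp2r2c (-1.21), a regulatory subunit of protein phosphatase 2A whose replicate 2 of week 2, at 7.16, lay far below the others at 8.98 and 8.89. Further probe sets of Ppp2r2c differed by -0.83 and -0.04.

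**Figure D3:**
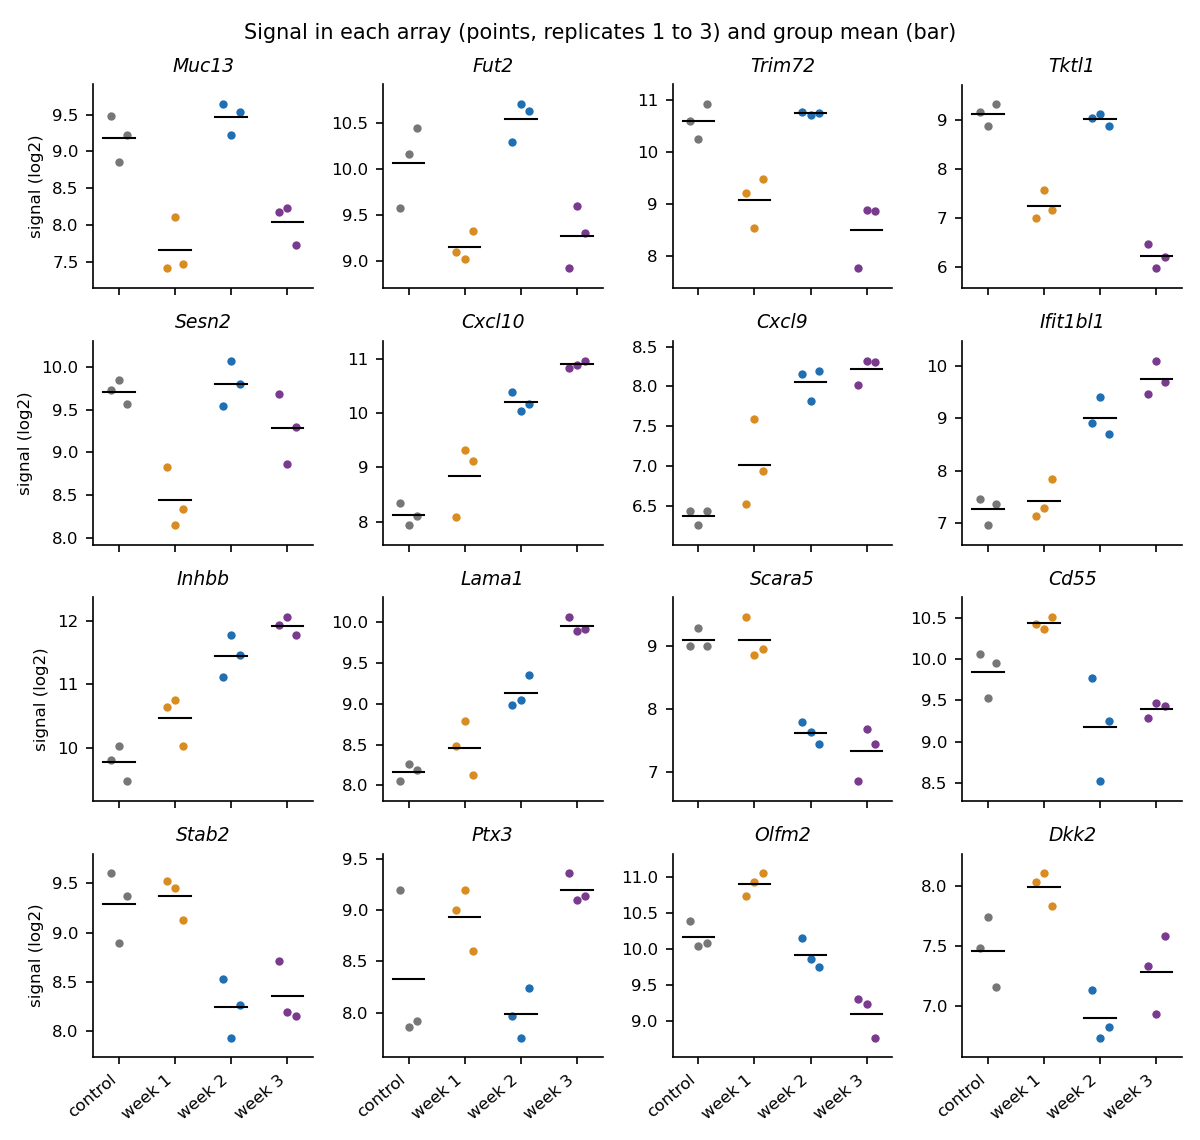
Log2 signal (vertical axes, scales differ) of 16 genes in each of the 12 arrays by group, points for replicates 1 to 3 and a bar for the group mean. Muc13, Fut2, Trim72, Tktl1 and Sesn2 are low at week 1 and near control at week 2. Cxcl10, Cxcl9, Ifit1bl1, Inhbb and Lama1 are higher at week 2 than at week 1, with a higher mean again at week 3. Scara5, Cd55, Stab2, Ptx3, Olfm2 and Dkk2 are lower at week 2 with no overlap of the arrays. The naming rule required no overlap of the 12 largest differences in each direction.

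The promoters of 4 genes are shown because chemokine and interferon-related genes with large differences were higher and 10 genes of mitosis lower at week 2, each at an unadjusted p below 0.05. Each is the 250 bases before the start of the gene, from RefSeq on build GRCm38.p6, with capitals for matches on either strand to the interferon-stimulated response element, read here as GAAA, any 2 bases and GAAA (for Cxcl10 and Ifit1bl1), the cell cycle homology region TTTGAA or the CCAAT box CCAAT (for Cenpf and Ube2c, where the CCAAT matches of Ube2c that begin at -186 and -183 from the start overlap). Cxcl10 lies at chr5:92348890-92349139 on the minus strand, Ifit1bl1 at chr19:34601969-34602218 on the minus strand, Cenpf at chr1:189688087-189688336 on the minus strand and Ube2c at chr2:164769679-164769928 on the plus strand.
Cxcl10: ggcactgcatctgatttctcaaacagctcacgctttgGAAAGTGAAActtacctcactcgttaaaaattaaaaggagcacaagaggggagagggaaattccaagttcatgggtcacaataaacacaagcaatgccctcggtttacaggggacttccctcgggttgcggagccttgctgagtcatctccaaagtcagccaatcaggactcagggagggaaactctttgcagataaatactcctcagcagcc
Ifit1bl1: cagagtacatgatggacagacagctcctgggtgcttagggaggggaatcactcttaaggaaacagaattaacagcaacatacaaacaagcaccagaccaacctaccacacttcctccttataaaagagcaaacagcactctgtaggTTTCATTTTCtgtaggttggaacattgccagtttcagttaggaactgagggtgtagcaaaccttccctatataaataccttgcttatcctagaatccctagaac
Cenpf: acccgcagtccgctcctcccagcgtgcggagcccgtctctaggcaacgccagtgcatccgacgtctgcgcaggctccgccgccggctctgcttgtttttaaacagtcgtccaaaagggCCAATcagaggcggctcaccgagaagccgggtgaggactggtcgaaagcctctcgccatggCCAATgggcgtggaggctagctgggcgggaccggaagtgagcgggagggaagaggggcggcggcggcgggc
Ube2c: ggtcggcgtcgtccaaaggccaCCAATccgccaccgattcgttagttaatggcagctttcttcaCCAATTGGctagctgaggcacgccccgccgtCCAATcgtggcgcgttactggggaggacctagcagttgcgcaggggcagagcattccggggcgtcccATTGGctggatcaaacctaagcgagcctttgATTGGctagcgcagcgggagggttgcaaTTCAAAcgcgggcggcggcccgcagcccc

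The response element was found in 3.04% of 27025 promoters of this length, and in 8 of the 19 interferon-stimulated genes and 8 of the 21 antigen presentation genes with a promoter in the table. Of 31 promoters of the mitosis list, 11 held TTTGAA and 24 held CCAAT, against 16.3% and 34.5% of all promoters. Of the 10 mitosis genes at an unadjusted p below 0.05, 9 had a promoter in the table, 4 of which held TTTGAA (Ccnb2, Cdc20, Ect2 and Ube2c) and 7 CCAAT. These matches are letters in a window and say nothing of binding.

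Cxcl10 and Cxcl9 are chemokines that recruit lymphocytes through the receptor CXCR3. Cxcl10, for which the response element is printed above, was at 8.09, 9.31 and 9.12 in week 1 and at 10.39, 10.04 and 10.17 in week 2, a difference of 1.35 (95% interval from 0.64 to 2.07, unadjusted p = 0.00275, adjusted p = 0.374 with limma). Cxcl9 was at 6.52, 7.59 and 6.94 in week 1 and at 8.16, 7.81 and 8.19 in week 2 (difference 1.04, unadjusted p = 0.0053). In both genes replicate 1 of week 1 was near control (7.94 to 8.34 for Cxcl10 and 6.26 to 6.43 for Cxcl9), and the other week 1 arrays lay between control and week 2. Without that replicate the differences were 0.98 and 0.79, and a further probe set of Cxcl9 differed by -0.02.

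Ifit1bl1, of the family of interferon-induced RNA-binding proteins, had a larger difference than any member of the lists of interferon-stimulated and antigen presentation genes. It was at 7.15, 7.29 and 7.84 in week 1, where it overlapped the control arrays (6.97 to 7.47), and at 8.90, 9.40 and 8.70 in week 2 (difference 1.58, 95% interval from 1.01 to 2.14, unadjusted p = 0.000261). It was not a member of the list of interferon-stimulated genes and is named for its size. The list itself differed little: of 28 members measured, 3 (10.7%) were higher at an unadjusted p below 0.05, against 3.48% of all genes, 0 were lower, and the median difference was 0.09 against -0.02 over all genes.

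The 3 members were Irf7, the transcription factor that amplifies interferon production, Rsad2, which encodes the antiviral protein viperin, and Oas2, an oligoadenylate synthetase. Irf7 was at 10.86, 11.21 and 10.92 in week 1 and at 11.34, 11.35 and 11.49 in week 2 (difference 0.40). Rsad2 was at 10.61, 11.30 and 11.26 in week 1 and at 11.60, 11.51 and 11.53 in week 2 (difference 0.49), and Oas2 differed by 0.29. All 3 genes lay above every control array already at week 1. Replicate 1 of week 1 was low for the whole list, at a mean of -0.17 from the members' own means over the 12 arrays, against 0.16 and 0.15 in the other week 1 arrays and 0.08 to 0.16 at week 2. Without that replicate the median difference of the list was -0.01, with 0 members higher and 1 lower. Without replicate 3 of week 2 there were 0 higher, and without replicate 1 or 2 of week 2 there was 1.

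In the list of antigen presentation and interferon gamma response, 5 of 29 members (17.2%) were higher at an unadjusted p below 0.05 and 0 lower, with a median of 0.09. Beside Cxcl9 and Cxcl10 these were Tap1, a peptide transporter of the class I pathway (difference 0.41), Cd274, which encodes the checkpoint ligand PD-L1 (0.46), and Cd74, the invariant chain of class II (0.44). Tap1 was at 10.96, 10.87 and 10.63 in week 1 and at 11.23, 11.13 and 11.32 in week 2, with no overlap. Cd274 was at 9.39, 9.93 and 9.68 in week 1 and at 10.31, 10.18 and 9.91 in week 2, so that replicate 2 of week 1 and replicate 3 of week 2 overlapped. The 3 other probe sets of Tap1 differed by -0.11, -0.32 and -0.19 and the mean of all by -0.05, so that its direction rests on the probe set chosen. Without replicate 1 of week 1, or replicate 1 or 2 of week 2, 3 members of the list were higher.

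Of 24 chemokines measured, 4 were higher (Ccl5, Cxcl1, Cxcl9 and Cxcl10) and 1 was lower (Ccl11) at an unadjusted p below 0.05, which is 16.7% and 4.17% against 3.48% and 3.07% of all genes. Ccl5, a chemokine that attracts T cells, differed by 0.41 and Cxcl1, which attracts neutrophils, by 0.61, while Ccl11, which attracts eosinophils, differed by -0.30 at signals between 6.25 and 6.76. Cxcl1 overlapped between the weeks, at 8.77, 8.27 and 8.08 in week 1 and 8.75, 9.29 and 8.92 in week 2. Without replicate 2 of week 2, 2 chemokines were higher, and without replicate 3 of week 1, 3 were lower.

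Of 24 members measured of the TNF and NF-kB list, 7 (29.2%) were higher and 1 lower at an unadjusted p below 0.05, against 3.48% and 3.07% of all genes, and 16 were neither, with a median difference of 0.22. Bcl3, a nuclear cofactor of NF-kB, was at 9.10, 8.56 and 8.66 in week 1 and at 9.78, 9.69 and 9.74 in week 2 (difference 0.97, 95% interval from 0.59 to 1.34, unadjusted p = 0.000432). Tnfaip3, which encodes the inhibitor A20, was at 10.85, 10.94 and 11.06 in week 1 and at 11.51, 11.74 and 11.53 in week 2 (difference 0.64, unadjusted p = 0.00108). Nfkbiz, which encodes a nuclear regulator of NF-kB, differed by 0.55, although 1 of its 2 further probe sets differed by -0.59. Arrays of the weeks did not overlap for any of these genes. Of them, Tnfaip3 and Nfkbiz were near control at week 2 and Bcl3 was above every control array.

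Cxcl1, described above, Birc3 (0.31), an inhibitor of apoptosis, Ptgs2 (0.50), the inducible cyclooxygenase, and Cebpd (0.49), a transcription factor of acute inflammation, were the other members that were higher. Sele, the adhesion molecule E-selectin, was the member that was lower, at 9.65, 9.47 and 9.34 in week 1 and at 9.29, 8.95 and 8.18 in week 2 (difference -0.68, 95% interval from -1.32 to -0.05). Selp, which encodes P-selectin, was higher, at 10.72, 10.60 and 10.43 in week 1 and 11.16, 11.15 and 10.76 in week 2 (difference 0.44). With 1 array left out, the difference ran from -0.92 to -0.37 for Sele and from 0.36 to 0.57 for Selp. Over the 14 leukocyte adhesion molecules measured, these 2 genes alone were at an unadjusted p below 0.05, and the median was 0.02. Both calls rest on single arrays: with 1 array left out in turn, 0 to 2 of the 14 were higher and 0 or 1 lower. Without replicate 3 of week 1, or without replicate 2 of week 2, 4 members of the NF-kB list were higher, without replicate 2 of week 1 or 1 of week 2, 5, and without replicate 3 of week 2 there were 10.

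Of 20 immediate-early and dissociation genes, which respond within minutes to growth factors, stress or tissue handling, 4 (Ier3, Fosl2, Maff and Myc) were higher at an unadjusted p below 0.05, against 3.48% of all genes, and 0 were lower, with a median of 0.10. Fosl2, a subunit of AP-1, was at 10.28, 9.88 and 9.96 in week 1 and at 10.92, 11.22 and 10.79 in week 2 (difference 0.94, 95% interval from 0.55 to 1.32, unadjusted p = 0.000602). Gadd45b, a growth arrest gene induced by stress and NF-kB that belongs to the list of cell cycle inhibitors and p53 targets, was at 10.91, 10.49 and 10.63 in week 1 and at 11.45, 11.63 and 11.37 in week 2 (difference 0.81, unadjusted p = 0.00076). The week 2 arrays of both genes lay within or near the range of control (10.61 to 11.13 for Fosl2 and 11.52 to 11.82 for Gadd45b).

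All 14 heat shock chaperones measured had a positive difference, 10 of them with arrays that did not overlap, against 6.16% of all genes. At an unadjusted p below 0.05 there were 5 (35.7%), and the median was 0.19. Hspa1b, an inducible HSP70, was at 9.22, 8.49 and 9.32 in week 1 and at 9.999, 9.67 and 9.50 in week 2 (difference 0.71), while further probe sets differed by 0.16 and -0.17. Hsp90aa1, an HSP90, was at 11.85, 11.71 and 11.75 in week 1 and at 12.13, 12.12 and 12.09 in week 2 (difference 0.34). The others were Hspb1 (0.29), Hspb8 (0.44) and Bag3 (0.43), the cochaperone of HSP70. Hspa1a differed by 0.58 with no overlap, and replicate 2 of week 1, at 7.33, was far below the others at 8.29 and 8.37. The sequences of Hspa1a and Hspa1b are nearly identical, so that their signals may not be separate. The list level was from -0.26 to -0.05 at week 1 and from 0.08 to 0.20 at week 2. Control lay from -0.06 to 0.16 and overlapped both weeks. Without replicate 3 of week 2 there were 2 members higher, and without replicate 2 of week 1, or 1 or 2 of week 2, there were 3.

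A value of RNA quality also differed between the weeks. The log2 difference between the probe sets at the 3′ and the 5′ end of Gapdh, which grows as RNA is degraded, had a mean of 0.474 with an SD of 0.059 over the 3 arrays of week 1 and of 0.348 with an SD of 0.0537 over those of week 2, with arrays from 0.415 to 0.533 and from 0.305 to 0.408. For Actb the ranges overlapped, from 0.07 to 0.14 and from 0.03 to 0.15. The part of RNA quality in the differences was not tested.

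Other stress programs gave a mixed picture. Of 15 cell cycle inhibitors and p53 targets, 4 (26.7%, against 3.48% of all genes) were higher and 0 lower, while the median was 0.03. The 4 were Cdkn2d, Gadd45b, Gadd45g and Sesn2. Of 19 genes of hypoxia and glycolysis, 6 (31.6%, against 3.48% of all genes) were higher and 0 lower, with a median of 0.03 as well, so that the members did not differ as one group. Ankrd37, a target of hypoxia-inducible factor, was at 10.76, 10.25 and 10.20 in week 1 and at 10.97, 11.54 and 11.02 in week 2 (difference 0.78, 95% interval from 0.27 to 1.28). Ddit4, an inhibitor of mTORC1, was at 10.41, 9.73 and 10.60 in week 1 and at 10.70, 11.08 and 11.06 in week 2 (difference 0.69). The glucose transporter Slc2a1 differed by 0.41, lactate dehydrogenase Ldha by 0.36, Ndrg1 by 0.35 and the pyruvate dehydrogenase kinase Pdk1 by 0.31, and none of the 6 overlapped. Without replicate 2 of week 2 there were 2 such members, and without replicate 1 of week 1 there were 3 higher and 1 lower.

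Of 18 genes of the oxidative stress response, 1 (Gpx3, a secreted glutathione peroxidase, 0.40) was at an unadjusted p below 0.05 with week 2 higher, a share of 5.56% against 3.48% of all genes. A positive difference was found in 15, and 7 did not overlap with week 2 higher, against 6.16% of all genes, with a median of 0.14. Of 20 genes of MYC and ribosome biogenesis, Myc itself was at 7.58, 7.81 and 7.85 in week 1 and at 8.31, 8.58 and 8.47 in week 2 (difference 0.71, 95% interval from 0.40 to 1.01, unadjusted p = 0.000861). The week 2 arrays lay above every control array (7.81 to 8.16), and the week 3 arrays were higher again, from 9.13 to 9.53. Nop58, a small nucleolar ribonucleoprotein (0.31), and Ddx21, an RNA helicase of the nucleolus (0.35), were the other 2 members that were higher. A further probe set of Ddx21 differed by -0.10. The 3 members are 15% of the list, against 3.48% of all genes, and 0 were lower. Without replicate 3 of week 1, or 3 of week 2, 1 member was higher.

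Of 37 members measured of the mitosis list, 10 (27%) were lower at an unadjusted p below 0.05, against 3.07% of all genes, 0 were higher, 30 had a negative difference, and the median was -0.33. Cenpf, a kinetochore protein, was at 8.63, 8.56 and 8.30 in week 1 and at 7.68, 7.52 and 7.82 in week 2 (difference -0.82, 95% interval from -1.15 to -0.49, unadjusted p = 0.00053), and its further probe sets differed by -0.01 and -0.60. Birc5, which encodes survivin of the chromosomal passenger complex, was at 8.08, 8.80 and 7.94 in week 1 and at 7.67, 7.33 and 7.70 in week 2 (difference -0.71). Nusap1, a protein of the spindle, was at 8.14, 9.22 and 8.47 in week 1 and at 7.90, 7.20 and 8.01 in week 2 (difference -0.90), while a further probe set differed by 0.42.

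The arrays of these 3 genes did not overlap, and replicate 2 of week 1 was the highest for Birc5 and Nusap1. The other members were Ube2c (-0.55), the ubiquitin-conjugating enzyme of the anaphase-promoting complex, its activator Cdc20 (-0.48), the kinesin Kif20a (-0.50), the cytokinesis regulators Racgap1 (-0.48) and Ect2 (-0.40), the spindle protein Spag5 (-0.48) and cyclin B2, Ccnb2 (-0.43). Further probe sets differed by -0.03 and 0.15 for Racgap1, by -0.09 and -0.04 for Spag5 and by -0.69 and -0.37 for Cdc20. As a list, mitosis lay at -0.27, 0.03 and -0.43 in the week 1 arrays and at -0.48, -0.61 and -0.41 in week 2, so that the groups overlapped by replicate 3 of each. Control lay from -0.71 to -0.08 and overlapped both weeks. At week 3 the list lay between 0.82 and 1.71, above both weeks in every array. Without replicate 2 of week 1, or without replicate 2 of week 2, 4 of the 37 members were lower, and with all groups in one fit there were 3. With the mean of the probe sets of a gene there were 7.

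No member of the DNA replication list was at an unadjusted p below 0.05 among 30 measured, and none was without overlap. Differences ran from -0.44 for Mcm5, a subunit of the replicative helicase, to 0.54 for Cdc6, which loads it, with a median of -0.08. Without replicate 2 of week 1 there were 2 members higher, and without replicate 3 of week 1 there were 2 lower.

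**Figure D4:**
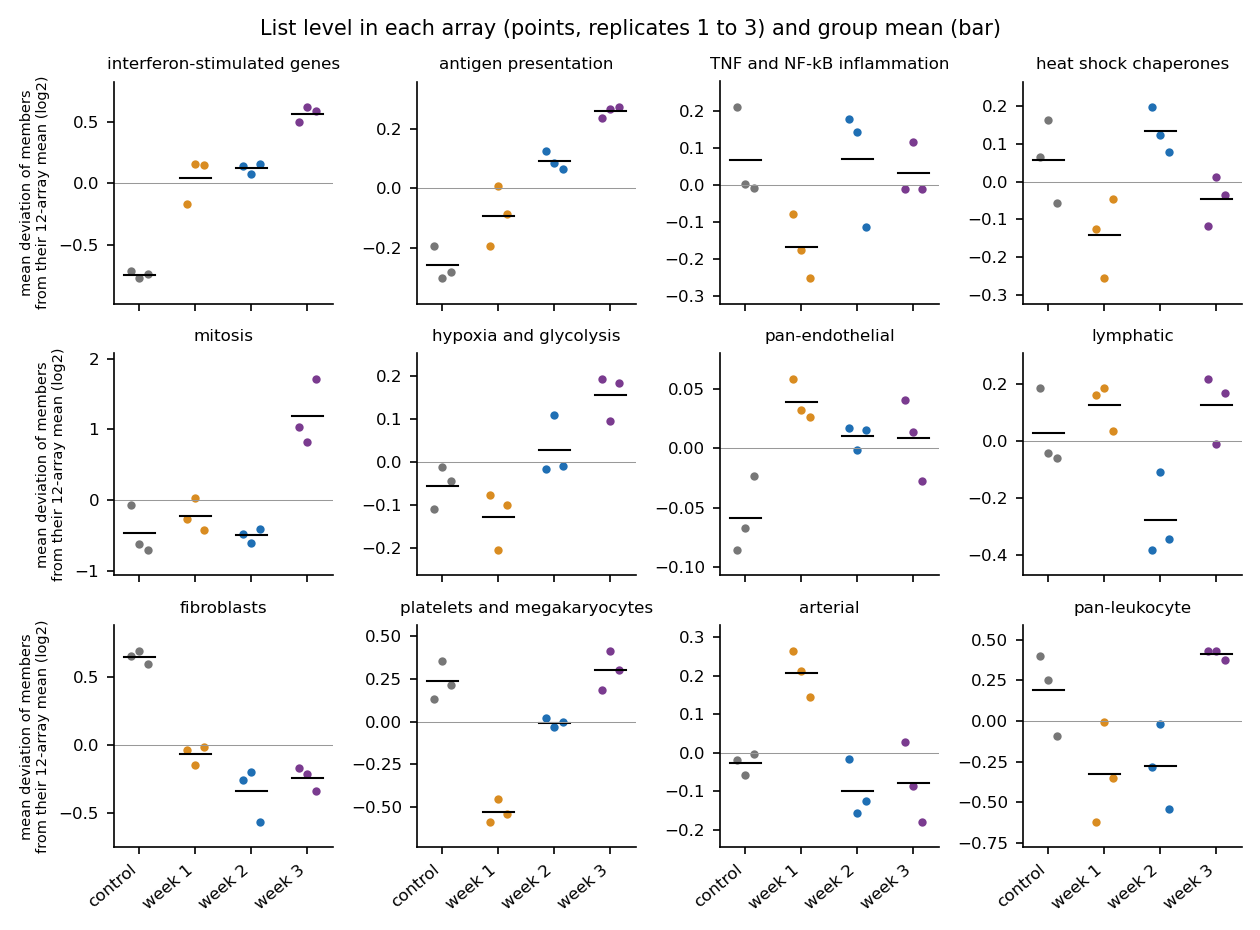
Mean deviation of the members of 12 lists from their own means over the 12 arrays (log2, scales differ) in each array, points for replicates 1 to 3 and a bar for the group mean. Without overlap, the platelet list (-0.03 to 0.02 against -0.59 to -0.46) and the antigen presentation, heat shock and hypoxia lists are higher at week 2. The lymphatic, arterial, fibroblast and pan-endothelial lists are lower than at week 1 without overlap. The interferon-stimulated, TNF and NF-kB, mitosis and pan-leukocyte lists overlap.

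The study names 4 secreted factors of a vascular niche, Inhbb, Lama1, Scgb3a1 and Tnfrsf11b, and chose them on these arrays, so that their direction is not independent evidence. Inhbb, which encodes the beta B subunit of activins, was at 10.64, 10.75 and 10.03 in week 1 and at 11.12, 11.78 and 11.46 in week 2 (difference 0.99, 95% interval from 0.43 to 1.54, unadjusted p = 0.00397). Lama1, the laminin alpha 1 chain, was at 8.48, 8.78 and 8.12 in week 1 and at 8.98, 9.05 and 9.36 in week 2 (difference 0.67, unadjusted p = 0.00967). Tnfrsf11b, which encodes osteoprotegerin, was between 9.82 and 10 in week 1 and at 10.15, 10.25 and 10.25 in week 2 (difference 0.33).

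Arrays of the weeks did not overlap for these 3 genes, and in all of them week 3 was higher than week 2 in every array. Scgb3a1, a small secreted secretoglobin, overlapped, at 8.56, 9.56 and 9.40 in week 1 and at 9.65, 9.99 and 9.55 in week 2 (difference 0.56, 95% interval from -0.07 to 1.19). Tnc, the matrix protein tenascin C, had a difference of 0.09 (95% interval from -0.33 to 0.50). Bmpr1a, a type I receptor for BMPs, was the other member of the BMP and TGF-beta list that was higher, at 7.90, 7.12 and 8.11 in week 1 and at 8.28, 8.91 and 8.88 in week 2 (difference 0.98). Its 5 further probe sets differed by 0.72, 0.11, 0.05, 0.04 and 0.03, so that most of them showed little difference. Of the 25 members, 2 (8%) were higher, against 3.48% of all genes, and 0 lower.

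Among 27 genes of basement membrane and matrix, 2 (7.41%) were higher and 1 (3.7%) lower, against 3.48% and 3.07% of all genes. Those higher were Lama1 and the protease Adamts1 (0.27). Lama4, the laminin alpha 4 chain of endothelial basement membranes, was lower. It was at 9.94, 10.01 and 10.35 in week 1 and at 9.62, 9.94 and 9.44 in week 2 (difference -0.44). A further probe set of Lama4 differed by -0.18, and on the probe set read the highest array of week 2 was level with the lowest of week 1. With 1 array left out in turn, 1 or 2 members of the list were higher and 0 to 2 lower.

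The identity of the cells as ECs differed little. Pecam1, which encodes the sorting antigen CD31, was at 13.48, 13.53 and 13.47 in week 1 and at 13.50, 13.43 and 13.47 in week 2 (difference -0.03, 95% interval from -0.26 to 0.21). Of 21 pan-endothelial markers 0 were at an unadjusted p below 0.05, and their differences ran from -0.22 to 0.07. Of these, 3 (Tie1, Sox18 and Mmrn2) had lower arrays at week 2 without overlap, against 6.94% of all genes. The list level was from 0.03 to 0.06 at week 1 and from -0.00 to 0.02 at week 2.

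All 10 arterial markers had a negative difference, 3 at an unadjusted p below 0.05 and 5 without overlap, against 3.07% and 6.94% of all genes. The list lay from 0.14 to 0.26 at week 1 and from -0.16 to -0.02 at week 2. Control (-0.06 to -0.004) and week 3 (-0.18 to 0.03) overlapped week 2, so that week 1 was the highest group. Dkk2, a secreted modulator of WNT signalling, was at 8.03, 8.10 and 7.83 in week 1 and at 7.13, 6.73 and 6.82 in week 2 (difference -1.09, 95% interval from -1.43 to -0.75, unadjusted p = 0.000107), and Fbln5, an elastic fibre protein, was at 12.15, 12.08 and 11.74 in week 1 and at 11.55, 11.24 and 11.39 in week 2 (difference -0.60). Gja4, the connexin 37 of arterial ECs, differed by -0.33. Hey2, a Notch target of arterial identity that is a member of the Notch list, was lower too, at 8.12, 7.95 and 7.61 against 7.42, 6.75 and 7.47 (difference -0.68), and it was the 1 of 16 Notch genes at an unadjusted p below 0.05.

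All 9 lymphatic markers measured had a negative difference. At an unadjusted p below 0.05 there were 5 (55.6%, against 3.07% of all genes), and 6 did not overlap, against 6.94%. Maf, a transcription factor of lymphatic valves and of other cells, was at 11.16, 11.004 and 11.18 in week 1 and at 10.25, 10.56 and 10.30 in week 2 (difference -0.74, 95% interval from -1.04 to -0.44, unadjusted p = 0.000599). Mmrn1, a secreted multimerin, was at 11.62, 11.56 and 11.62 in week 1 and at 11.03, 11.02 and 11.05 in week 2, the tightest groups of the list (difference -0.57, unadjusted p = 0.000682), while a further probe set differed by 0.06.

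Reln, the secreted glycoprotein reelin, differed by -0.54, the neuropeptide gene Nts by -0.60 and Sema3d, a guidance factor, by -0.29. Prox1, the transcription factor that defines lymphatic ECs, had a difference of -0.48 (unadjusted p = 0.0942), and Lyve1, a hyaluronan receptor at a high signal in these lung ECs, one of -0.05. Stab2, described above, is also made by lymphatic ECs and is no member of the list. Week 3 and control overlapped week 1 in the list, from -0.01 to 0.22 and from -0.06 to 0.19, with week 2 from -0.38 to -0.11. Without replicate 1 of week 1, or replicate 1 or 3 of week 2, or with the mean of the probe sets of a gene, 3 members were lower.

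Of 8 general capillary markers, 0 were at an unadjusted p below 0.05, although 7 had a negative difference and 4 did not overlap, against 6.94% of all genes, with a median of -0.11. The 8 aerocyte markers, of the capillary type that faces the alveolar epithelium, had a median of 0.13 and 7 positive differences, none at an unadjusted p below 0.05. Of 10 venous markers Selp was higher and Bst1 (-0.35), an ectoenzyme of ECs and stroma, lower. A further probe set of Bst1 differed by 0.00.

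Regulators of vessel growth were lower or higher without a common direction. Of 29 genes of tip cells and angiogenesis, 3 (10.3%) were lower and 2 (6.9%) higher, against 3.07% and 3.48% of all genes. The median was -0.03. Vegfc, the growth factor of lymphatic vessels, was at 11.29, 11.28 and 11.29 in week 1 and at 10.90, 10.93 and 10.88 in week 2 (difference -0.38, 95% interval from -0.62 to -0.15, unadjusted p = 0.00594). Nrp2, a coreceptor for it, was at 11.35, 11.34 and 11.28 in week 1 and at 10.97, 11.01 and 10.79 in week 2 (difference -0.40). The arrays of each week were close together in these genes and did not overlap, and further probe sets of Nrp2 differed by -0.72, 0.07 and -1.09.

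Adm, the vasodilator adrenomedullin, was higher, at 8.75, 8.92 and 8.94 in week 1 and at 9.44, 9.22 and 9.28 in week 2 (difference 0.44), with control between 10.03 and 10.36. Trp53i11, a p53-induced protein, differed by 0.41 and was from 11.28 to 11.58 at week 3. Adm was also the 1 of 20 genes of shear stress, vasomotor control and anticoagulation at an unadjusted p below 0.05. Among 19 junction genes, Gja4 was lower and Pkp4, a plakophilin (0.31), higher.

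Of 15 genes of fatty acid handling, the fatty acid-binding protein Fabp5 was lower (-0.44) and 0 higher, and 0 of 18 genes of retinoid and xenobiotic metabolism were at an unadjusted p below 0.05. Of 12 complement genes, Cd55 was lower and C1qa higher. C1qa, made by macrophages, was at 7.15, 6.82 and 8.00 in week 1 and at 8.51, 9.18 and 7.63 in week 2 (difference 1.12, 95% interval from 0.10 to 2.13), so that the groups overlapped.

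Of 12 transcripts of platelets and megakaryocytes measured, 7 (58.3%) were higher at an unadjusted p below 0.05 and without overlap, against 3.48% and 6.16% of all genes, 0 were lower, and the median was 0.49. Pf4, the chemokine platelet factor 4, was at 8.32, 8.85 and 8.54 in week 1 and at 9.51, 9.47 and 9.53 in week 2 (difference 0.93, 95% interval from 0.58 to 1.29, unadjusted p = 0.000391). Itga2b, the alpha chain of the fibrinogen receptor, was at 8.43, 8.57 and 8.34 in week 1 and at 9.40, 9.17 and 9.26 in week 2 (difference 0.83, unadjusted p = 0.000196). Tubb1, the tubulin of platelets, was at 8.48, 7.69 and 8.15 in week 1 and at 9.65, 9.21 and 9.38 in week 2 (difference 1.31, unadjusted p = 0.000451).

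The other 4 were Ppbp (0.76), a platelet chemokine, Treml1 (0.75) and Clec1b (0.54), receptors of the platelet surface, and Itgb3 (0.43), the beta chain of the fibrinogen receptor, which ECs make as well. Gp1bb, Gp9, Gp5 and Gp6 of the platelet glycoprotein complexes had signals between 7.17 and 8.53 in the means of both weeks and differences from -0.18 to 0.32. As a list, these transcripts were from -0.59 to -0.46 at week 1, from -0.03 to 0.02 at week 2, from 0.13 to 0.35 in control and from 0.19 to 0.41 at week 3, so that week 1 was the lowest group and no group overlapped with it. With 1 array left out in turn, 7 or 8 members were higher. Of 7 erythroid transcripts, 0 were at an unadjusted p below 0.05.

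Of 11 fibroblast transcripts measured, 4 (36.4%) were lower at an unadjusted p below 0.05, against 3.07% of all genes, and 0 higher, with a median of -0.19. Dcn, the matrix proteoglycan decorin, was at 11.87, 11.34 and 11.47 in week 1 and at 10.87, 10.73 and 10.56 in week 2 (difference -0.84, 95% interval from -1.23 to -0.44, unadjusted p = 0.00138), although a further probe set differed by 0.32. Lum, the proteoglycan lumican, differed by -0.71, Fbln1 by -0.57 and Col3a1, a fibrillar collagen, by -0.33, and arrays did not overlap for any of the 4. Further probe sets of Fbln1 differed by -0.09 and 0.02. Islr, a surface protein of mesenchymal cells, was among the 12 largest differences downward (-0.82). The list lay between -0.15 and -0.02 at week 1, between -0.57 and -0.20 at week 2 and between 0.60 and 0.70 in control. Pdgfra, which encodes CD140a and was used to exclude fibroblasts, overlapped, at 10.49, 9.99 and 10.78 against 10.36, 10.72 and 9.87 (difference -0.10, 95% interval from -0.73 to 0.53).

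Of 12 mural cell markers, Cspg4, the proteoglycan NG2 of pericytes, was higher, at 8.56, 8.02 and 7.90 in week 1 and at 8.80, 8.86 and 9.10 in week 2 (difference 0.76), and Abcc9, a subunit of potassium channels of pericytes, was lower, at 7.31, 7.04 and 7.97 against 6.82, 6.80 and 6.77 (difference -0.64). Pdgfrb, which encodes CD140b, overlapped and differed by 0.56 (95% interval from -0.09 to 1.20).

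Leukocyte transcripts gave no common direction. Ptprc, which encodes CD45, was at 7.58, 8.61 and 8.37 in week 1 and at 8.50, 9.07 and 7.72 in week 2 (difference 0.24, 95% interval from -0.65 to 1.14), and Itgam, which encodes CD11b, was between 6.41 and 7.16 in the 6 arrays, below the median of all values. Of 10 pan-leukocyte markers 0 were at an unadjusted p below 0.05. Of 15 macrophage and monocyte markers C1qa was higher and Mrc1, the mannose receptor of macrophages and lymphatic ECs, was lower, at 9.64, 10.30 and 9.62 against 8.81, 9.49 and 8.95 (difference -0.77). Of 12 neutrophil markers S100a8 was higher (0.55) and 0 were lower.

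Epcam was at 7.15 to 7.23 in week 1 and at 7.20 to 7.46 in week 2, and 0 markers of the 7 of alveolar type 1, 8 of alveolar type 2 and 11 of airway epithelial cells were at an unadjusted p below 0.05, with medians of 0.28, 0.15 and -0.11. All 7 alveolar type 1 markers were higher on average, and the list overlapped, from -0.67 to 0.14 at week 1 and from -0.28 to 0.63 at week 2. Of 8 mesothelial markers Krt18 was higher (0.47), and no marker of mast cells, basophils or lymphocytes was at an unadjusted p below 0.05. The levels of the platelet and fibroblast lists did not overlap between the weeks, and their part in the differences described above was not tested.

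**Figure D5:**
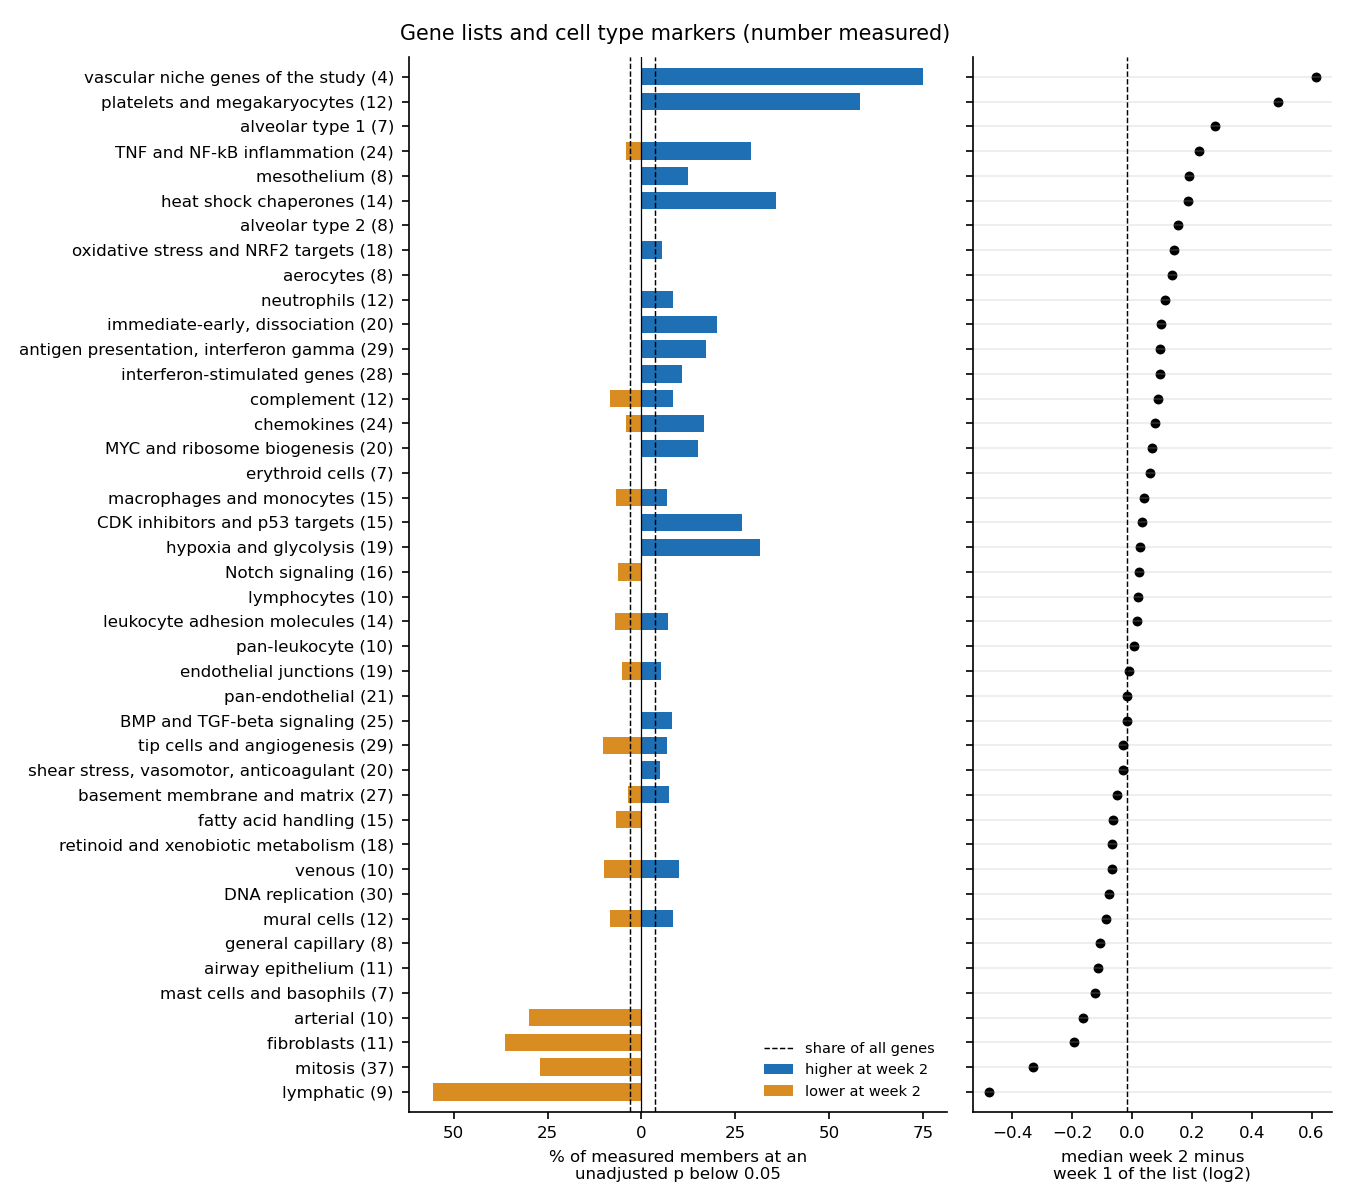
Left, share of the measured members of each list (%, number measured in brackets) at an unadjusted p below 0.05, blue to the right for higher and orange to the left for lower at week 2, with dashed lines at the shares of all genes (3.48% and 3.07%), and right, the median difference of the list (log2) with a dashed line at the median of all genes (-0.02). The niche list chosen by the study, platelets, heat shock and hypoxia have the largest shares upward and lymphatic, fibroblast, arterial and mitosis the largest downward.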

How the data were processed

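RNA of sorted lung ECs was hybridised by the authors to Affymetrix arrays of the mouse genome, and the deposited values are log2 signals after RMA, which corrects background, normalizes the arrays to each other by quantiles and summarizes probes per probe set. RMA compresses low signals, and the labels give no array batch. Precision is limited by 3 arrays a group. Each p-value sets a difference against the spread between these arrays, with the variance moderated over all probe sets by limma. As the number of mice behind an array is not given, that spread may differ from the one between animals.

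Of 45101 probe sets, 64 array controls were set aside. Of the 45037 tested, 34945 had 1 gene symbol in the platform annotation, 932 several and 9160 none. The 9010 genes with more than 1 probe set were read from the one of highest mean. Week 2 was compared with week 1 with limma 3.58.1 in R 4.3.3 (lmFit and eBayes, 6 arrays, 2 groups), with Benjamini-Hochberg adjustment over all probe sets and a threshold of 0.05. Figures were drawn with matplotlib 3.10.9. The fit was tested on simulated data.

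Genes were named by rule. These were the 12 largest differences in each direction among genes at an unadjusted p below 0.05, without overlap of the arrays and with a mean above the median of all values, 8.13, leaving out symbols without a gene name, together with genes past the threshold in any alternative, the members of each list at an unadjusted p below 0.05 or with its largest differences, the genes of the sorting antigens, the study's niche genes and the genes of largest spread at week 1. Prox1, Lyve1, Gp1bb, Gp5, Gp6 and Gp9 were named after their values were seen. The members and lists were chosen with earlier results of these data known. A list level is the mean deviation of its members from their own means over the 12 arrays.

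Alternatives were all groups in one fit, a replicate block, each array left out, repeated quantile normalization, median centring, a filter on low values, probe sets without the suffixes for shared sequence, the mean of a gene's probe sets, trended and robust variance, and array weights. Promoters came from RefSeq (GRCm38.p6).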

Additional observations from a re-analysis of the deposited data

How the results depend on the processing

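The count of genes past the adjusted threshold stayed at 0 under 13 of 15 alternatives. With all groups in one limma fit it was 1 (Tktl1, adjusted p = 0.0278), and with trended and robust variance it was 5 (Tktl1 and Fut2, adjusted p = 0.0333, Trim72 and Muc13, adjusted p = 0.0425, and Pcsk5, adjusted p = 0.0459). Genes higher at an unadjusted p below 0.05 ran from 469 to 629 and genes lower from 394 to 703 with 1 array left out in turn. The replicate numbers did not pair the samples: the correlations of same-numbered deviations were from -0.05 to 0.03, and 1 of 3 numbers matched best with itself. With the replicate block 586 genes were higher and 489 lower, and 0 passed the adjusted threshold.

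The share of the sum of squares between the weeks was 27.2% to 31.4% with 1 array left out, where fewer arrays raise it by construction, and 26.9% with a filter on low values. With 1 array left out, the median difference ran from -0.0932 to 0.15 for cell cycle inhibitors and p53 targets, from -0.0612 to 0.013 for tip cells, from -0.026 to 0.0723 for Notch, from -0.054 to 0.0052 for BMP and TGF-beta, from -0.0551 to -0.0216 for shear stress, from 0.018 to 0.10 for hypoxia, from 0.0877 to 0.21 for oxidative stress and from 0.53 to 0.79 for the niche genes. Over 42 lists and 630 values, 27 moved beyond the spread of the arrays and 32 differed in sign from the reported median. The causes were not tested.

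With 1 array left out, the difference changed sign for Basp1 (from -0.0764 to 0.84), Klf15 (from -0.80 to 0.12), Pdgfra (from -0.32 to 0.12), Ptprc (from -0.0781 to 0.60), Scgb3a2 (from -1.35 to 0.16) and Tnc (from -0.0482 to 0.21), none of which was at an unadjusted p below 0.05. With the mean of the probe sets of a gene it changed sign for Pdgfra (0.0521) and Tap1 (-0.0529). With trended and robust variance 6 arterial markers were lower and 5 interferon-stimulated genes higher, and with the replicate block 1 gene of MYC and ribosome biogenesis was higher. Lists with 1 or 2 members at an unadjusted p below 0.05 lost or gained such members when single arrays were left out, so that these counts rest on single arrays.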
